A study of Mus musculus with 30 samples.

Results

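The promoter peaks of the mouse zinc finger protein genes were described in an accessibility atlas of natural killer (NK) cells, the innate lymphocytes that kill infected and transformed cells. Assay for transposase-accessible chromatin with sequencing (ATAC-seq), in which a transposase cuts open DNA, had been run on splenic NK cells, and reads had been counted over the peaks of the atlas. Peaks that the authors annotated as promoters and whose gene name is Zfp followed by a number were taken, leaving out Zfp36, Zfp36l1 and Zfp36l2, which encode RNA-binding proteins of another finger type. The rule gave 316 peaks of 307 genes, out of 38526 peaks of 14886 genes, and left 11732 promoter peaks of other genes. Of the 394 protein-coding Zfp genes in the RefSeq annotation of GRCm38.p6, 302 have such a peak, and 28 further Zfp genes have peaks but none annotated as a promoter. The rule used names and annotation only, and no measured value. It and the gene lists used below were nevertheless chosen with earlier results of these data known.

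Cells of a knockout (KO) and a wild-type (WT) genotype were compared. KO cells have a genotype aimed at the genes of EP2 and EP4, which are receptors for prostaglandin E2 (PGE2). It is GzmbCre Ptger2-/- Ptger4 fl/fl, in which Ptger4 is removed where a Cre driven from the granzyme B gene acts. WT cells are C57BL/6J without Cre, so that the receptors and the Cre cannot be told apart. All cells were kept for 5 days in a low dose of IL-2 with IL15:IL15Ra, then had 100 ng/ml PGE2 or none for 5 h, and for the last 4 h either had their activating receptor NK1.1 engaged by antibody (stimulated) or not (resting). The 8 groups are stimulated KO with PGE2, stimulated untreated KO, resting KO with PGE2, resting untreated KO, and the same 4 of WT. There are 4 libraries in each, except 3 in resting untreated KO and in resting WT with PGE2, whose libraries are numbered 2, 3 and 4. The labels do not say whether replicates are separate animals or cultures, so a p-value measures the spread between these libraries, which may be technical.

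Zinc finger proteins of this name mostly carry tandem C2H2 fingers, each folded round a zinc ion and reading a few bases of DNA, and they form the largest family of transcription factor genes in mammals. Many have a KRAB domain, which recruits TRIM28 (KAP1) and, through it, the histone methyltransferase SETDB1, and these silence transposable elements and keep imprints. The genes have multiplied in tandem clusters, while the more conserved members without KRAB lie scattered and include general promoter-binding factors and regulators of lymphocytes.

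Values below are the authors' normalised read counts per peak, that is, reads over a peak divided by the library's size factor; all of them came out as whole when divided by the value of 1 read estimated for the library. The libraries hold 8444350 to 20153816 reads in peaks, of which 1.23 to 1.38% fall in the 316 peaks (106674 to 259698 reads). All 8 NK marker genes on the list used here (Ncr1, Klrb1c, Klrk1, Eomes, Tbx21, Gzma, Prf1 and Nkg7) have a promoter peak, and no B cell, T cell or erythroid marker has one. Among myeloid and other innate lymphoid markers only Cd14 and Kit do. Peaks of any type were present at 2 of 5 B cell, 2 of 6 T cell and 1 of 4 erythroid markers. They were also present at 4 of 5 myeloid and 4 of 5 other innate lymphoid markers. Summed over all peaks of a list, libraries held 16900 to 23200 for NK and 4310 to 6890 for other innate lymphoid markers. The sums were 2150 to 2650 for myeloid, 1560 to 2080 for T cell, 843 to 1100 for B cell and 362 to 490 for erythroid markers. The peak over a Ptger4 exon (chr15:5241955-5243110) held 56.2 to 152 in the 15 KO libraries and 434 to 685 in the 15 WT libraries, and the Ptger2 promoter peak (chr14:44988181-44990885) held 83.6 to 247 in KO and 560 to 1109 in WT libraries, so these 2 peaks separate the genotypes as labelled. The Ptger4 promoter peak (chr15:5243535-5244984) did not separate them, at 901 to 1605 in KO and 822 to 1455 in WT libraries. Receptor protein was not measured in these libraries. In bulk libraries like these, a smaller share of cells with an open site and a less open site in every cell cannot be told apart.

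Promoter stretches from peaks with large changes are shown first, though the counts cover whole peaks and not these stretches alone. Each is the 250 bases before the gene's RefSeq start in GRCm38.p6 (the assembly of mm10, the build of the peaks), written 5′ to 3′ on the gene's strand, and lies inside the member peak. Capitals mark matches on either strand to the short motifs that were searched: CRE (TGACGTCA), AP-1 (TGANTCA), ETS (CCGGAAGT), the GC box (GGGCGG), the box for nuclear factor Y (CCAAT), the TATA box (TATAAA) and the YY1 element (AAGATGGC). Zfp827, Zfp777 and Zfp330 are shown because they rose most with stimulation among peaks that hold a start of their own, and Zfp825, Zfp781 and Zfp512 because they fell most among such peaks in KO cells.
Zfp827 (chr8:79028187-79028436, plus strand): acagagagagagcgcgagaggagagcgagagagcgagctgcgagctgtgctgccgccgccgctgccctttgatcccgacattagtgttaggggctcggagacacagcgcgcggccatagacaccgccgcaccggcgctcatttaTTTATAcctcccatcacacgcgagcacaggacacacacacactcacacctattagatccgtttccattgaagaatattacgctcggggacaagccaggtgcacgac
Zfp777 (chr6:48047795-48048044, minus strand): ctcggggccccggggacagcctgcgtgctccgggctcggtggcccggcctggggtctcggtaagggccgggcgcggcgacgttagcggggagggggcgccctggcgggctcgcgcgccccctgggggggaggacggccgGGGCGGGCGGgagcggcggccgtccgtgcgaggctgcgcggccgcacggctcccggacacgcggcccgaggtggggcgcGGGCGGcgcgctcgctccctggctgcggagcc
Zfp330 (chr8:82774146-82774395, minus strand): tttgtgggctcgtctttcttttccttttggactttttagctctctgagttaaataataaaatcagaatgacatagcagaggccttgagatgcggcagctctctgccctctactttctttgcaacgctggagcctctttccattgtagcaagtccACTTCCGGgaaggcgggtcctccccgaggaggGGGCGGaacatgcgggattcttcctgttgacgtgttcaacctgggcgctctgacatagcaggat
Zfp825 (chr13:74493962-74494211, minus strand): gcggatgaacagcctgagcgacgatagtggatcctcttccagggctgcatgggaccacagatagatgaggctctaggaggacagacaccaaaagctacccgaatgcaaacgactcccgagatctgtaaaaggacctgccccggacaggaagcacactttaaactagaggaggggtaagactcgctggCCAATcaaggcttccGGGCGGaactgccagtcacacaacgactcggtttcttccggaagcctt
Zfp781 (chr10:81930513-81930762, minus strand): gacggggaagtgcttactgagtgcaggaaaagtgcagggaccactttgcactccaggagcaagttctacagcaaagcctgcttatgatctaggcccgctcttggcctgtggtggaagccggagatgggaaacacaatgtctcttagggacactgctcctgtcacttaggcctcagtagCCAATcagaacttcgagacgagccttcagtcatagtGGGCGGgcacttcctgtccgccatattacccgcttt
Zfp512 (chr5:31452186-31452435, plus strand): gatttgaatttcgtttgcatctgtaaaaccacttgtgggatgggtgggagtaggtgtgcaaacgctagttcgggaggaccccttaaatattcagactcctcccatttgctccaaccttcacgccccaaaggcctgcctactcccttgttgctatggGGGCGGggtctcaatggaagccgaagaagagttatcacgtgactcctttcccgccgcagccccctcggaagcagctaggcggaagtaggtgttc

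The promoters that rose do not look alike in these letters. The Zfp777 stretch is 84.0% G and C with 42 CpG and 3 GC box matches, of which a pair overlap, the Zfp827 stretch is 58.4% G and C with 23 CpG and a single TATA match on the opposite strand, and the Zfp330 stretch is 50.8% G and C with an ETS and a GC box match. Zfp825 and Zfp781, which fell, each hold a CCAAT and a GC box match, at 55.2% and 54.0% G and C. None of the 6 stretches holds a CRE or AP-1 match, which says only that those letters are not in these windows.

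As a family the promoters were as open as those of other genes but poorer in CpG. In resting untreated WT cells, the median level was 341 normalised counts per kb of peak over the 316 peaks, against 350 over the 11732 other promoters and 106 over the 26478 intron, exon and intergenic peaks. The highest members were Zfp869 (chr8:69716234-69717471) at 1958 ± 72.8 per kb, Zfp446 (chr7:12977478-12978748) at 1915 ± 18.2 and Zfp574 (chr7:25076654-25077726) at 1828 ± 67.9 (SD, n = 4), of which Zfp446 lay within the spread of Zfp869. The lowest were Zfp449 on the X chromosome at 50.2 ± 4.5 per kb, Zfp663 at 52.1 ± 12.3 and Zfp612 at 53.2 ± 13.1, which lie within each other's spread. The Zfp869 peak also holds the start of another gene, Gm51532, as 35 members hold another gene's start.

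Members were narrower than other promoter peaks, with a median width of 1266.5 bp (449 to 4293) against 1411 bp. They are also unevenly placed: 75 of them (23.7%) lie on chromosome 7, which holds 7.21% of all promoter peaks, 39 (12.3%) on chromosome 17 and 34 (10.8%) on chromosome 13. Within 100 kb of another Zfp gene lie 186 members, called clustered here, and 130 are dispersed. In windows from 250 bases before to 50 bases after the start, which 254 members have inside their peak, the median was 54.7% G and C with 14 CpG, against 62% and 22 CpG in 8110 windows of other promoter peaks. The GC box was present in 44.9% of the members' windows and 69.7% of the others', and CCAAT in 50% and 38.5%. ETS was in 11.4% and 8.68%, CRE in 3.54% and 3.49%, AP-1 in 3.15% and 4.4%, TATA in 6.3% and 6.07% and YY1 in 5.51% and 4.67%. Among the members, clustered ones had fewer CpG than dispersed ones (medians of 12 and 18) and fewer GC boxes (38% and 56.2% of windows), while median levels differed little, at 340 and 351 normalised counts per kb.

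Stimulation through NK1.1 changed a minority of these promoters, mostly by small amounts. In stimulated untreated KO cells against resting untreated KO cells, 42 of the 316 peaks rose and 75 fell, and in stimulated untreated WT cells against resting untreated WT cells 47 rose and 54 fell. A peak was called at an adjusted p under 0.05 from limma over all 38525 tested peaks. The called share of members was 37% in KO and 32% in WT cells, below the share among all peaks (54.5% in KO, 56.3% in WT) and among the other promoters (41.2% in KO, 41.5% in WT). By direction, 13.3% of members rose and 23.7% fell in KO cells, against 28.1% and 26.4% of all peaks and 18% and 23.2% of the other promoters; in WT cells 14.9% rose and 17.1% fell, against 28.9% and 27.4% of all peaks and 19.6% and 21.8% of the other promoters. Changes under 0.5 on the log2 scale made up 94% of members in each genotype, against 84.8% of the other promoters in KO and 85.6% in WT. Libraries of the groups compared did not overlap at 93 of the 117 called peaks in KO and at 81 of the 101 in WT. The share of called peaks without overlap was not computed over all peaks, here or in the comparisons below. Such counts therefore describe the members alone. The balance of rises and falls depended on scaling: by quantile normalisation 36 rose and 114 fell in KO and 36 rose and 87 fell in WT, by total reads in peaks 40 rose and 75 fell in WT, and by TMM 51 rose and 60 fell in KO. Under quantile normalisation the median log2 change of all peaks was -0.13 in KO and -0.11 in WT cells, so directions of small changes are relative to the authors' size factors.

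The strongest rises were shared by both genotypes, at Zfp827, Zfp219, Zfp639, Zfp777 and Zfp330. Zfp827, whose human counterpart ZNF827 binds the NuRD remodelling complex, has the widest member peak (chr8:79026852-79031144). It held 2382, 2309, 1864 and 1916 in stimulated untreated KO libraries and 979, 840 and 815 in resting untreated KO libraries, and 2033, 2032, 2082 and 2072 in stimulated untreated WT libraries and 1025, 965, 841 and 971 in resting untreated WT libraries. Every stimulated library lay far above every resting one, with log2 changes of 1.27 ± 0.09 (SE, adjusted p = 4.87e-14) in KO and 1.11 ± 0.09 (adjusted p = 1.34e-13) in WT by limma. Zfp330, which encodes a nucleolar protein, held 951, 910, 902 and 849 in stimulated untreated KO and 503, 518 and 455 in resting untreated KO libraries, and rose by 0.88 ± 0.08 there and by 0.94 ± 0.08 in WT cells (adjusted p = 3.06e-11 and 4.72e-13 by limma). Zfp777 held 215.4 ± 22.3 in stimulated and 112 ± 28.1 in resting untreated KO cells (n = 4 and 3), and 187.4 ± 42.9 in stimulated and 85.3 ± 15.1 in resting untreated WT cells (n = 4 each). Its groups did not overlap either, but lack of overlap was a condition for naming a peak in a comparison. WT stimulated replicate 2, at 123, lay well below the others at 204 to 213.

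**Figure D1:**
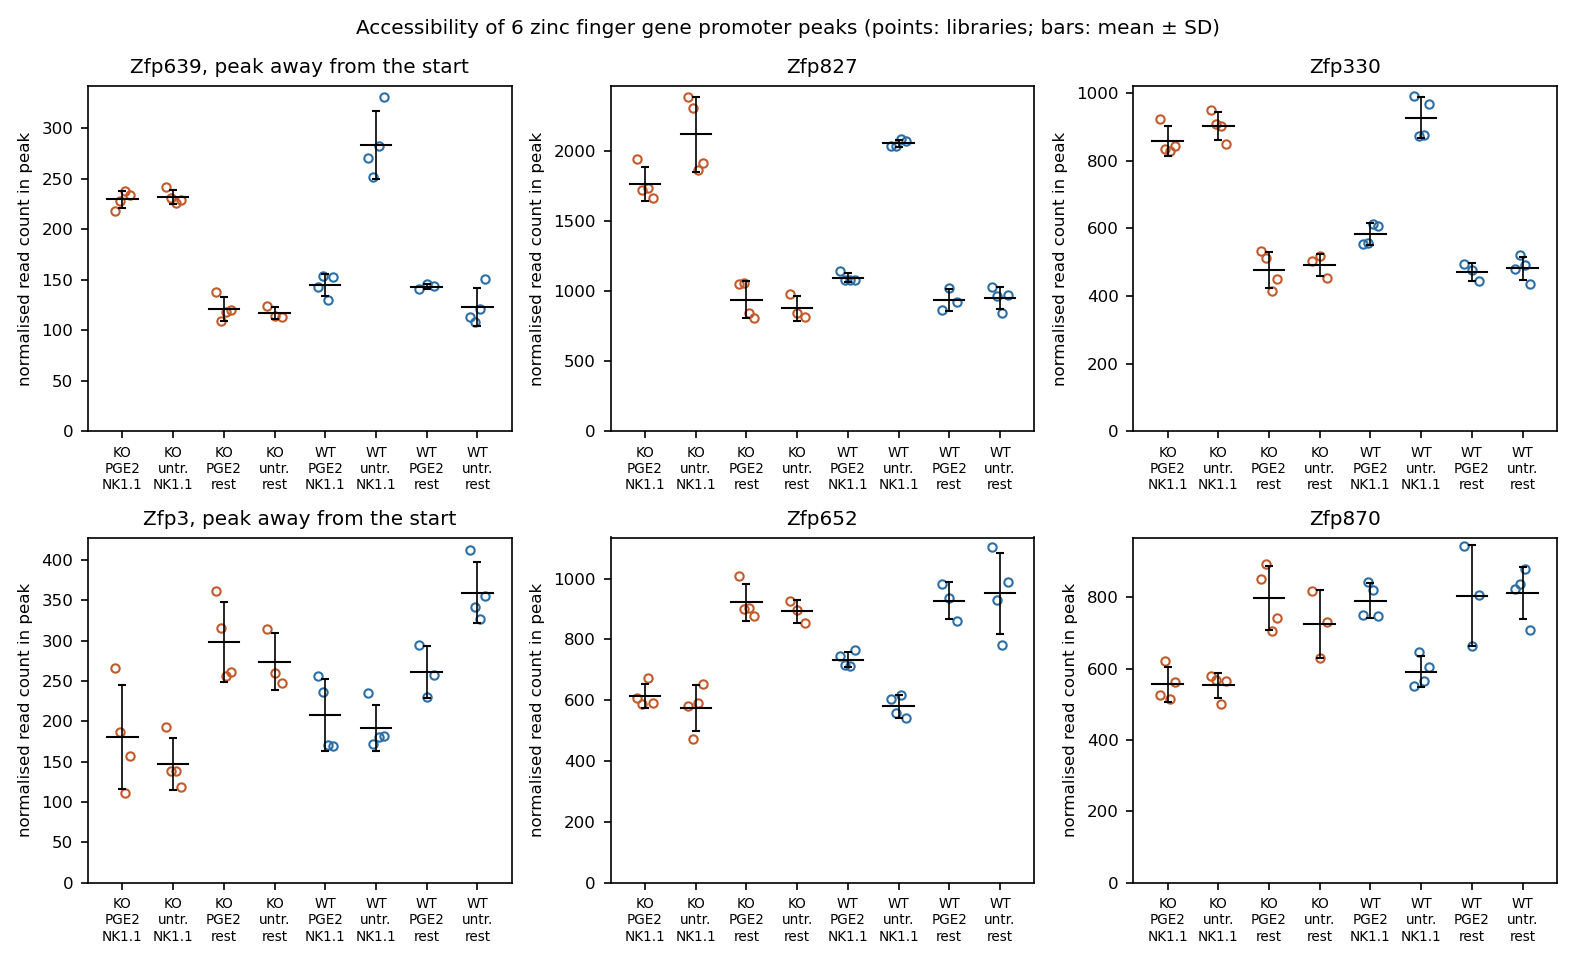
Normalised read counts of 6 member peaks in the 8 groups; points are libraries and bars the group mean with its SD. Untreated stimulated libraries lie above untreated resting ones of the same genotype at the peaks that rose. With PGE2 this does not hold throughout: at Zfp639 stimulated WT libraries (130 to 154) overlap resting WT ones (141 to 145). At Zfp827 the 4 stimulated WT libraries with PGE2 (1077 to 1146) lie below the 4 without it (2032 to 2082), while the stimulated KO libraries with PGE2 lie at 1662 to 1939.

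Zfp62 rose in both genotypes as well, to 1709 ± 207 in stimulated against 1098 ± 23.6 in resting untreated KO cells and to 1754 ± 98.7 against 1109 ± 62.1 in WT cells, with log2 changes of 0.63 and 0.66. Zfp940 did the same at lower counts, with log2 changes of 0.64 in KO and 0.67 in WT. Zfp948 (chr17:21565861-21567287) rose by 0.78 ± 0.09 in KO cells, where stimulated libraries held 716 to 822 and resting ones 405 to 508. In WT cells Zfp593, a relative of the yeast ribosome export factor Bud20, held 312.4 ± 27.5 when stimulated and 194.9 ± 27.1 at rest. Both moved the same way in the other genotype. Zfp948 held 758 to 796 in stimulated and 477 to 597 in resting untreated WT libraries. Zfp593 held 258 to 328 in stimulated and 215 to 245 in resting untreated KO libraries. These 4 peaks showed no overlap between the groups in which they are given, though lack of overlap in a comparison was a condition for naming them.

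Among the falls, Zfp652, Zfp512, Zfp825 and a peak of Zfp3 stood out in both genotypes. The product of ZNF652, the human counterpart of Zfp652, is a repressor that binds the corepressor CBFA2T3. The Zfp652 peak (chr11:95712161-95715005) held 582, 473, 592 and 655 in stimulated untreated KO and 928, 897 and 853 in resting untreated KO libraries, and 605, 557, 619 and 541 in stimulated untreated WT and 1104, 929, 783 and 990 in resting untreated WT libraries. It fell by 0.64 ± 0.09 in KO and by 0.70 ± 0.09 in WT cells on the log2 scale (adjusted p = 3.84e-07 and 1.06e-08 by limma). This peak holds no listed start of Zfp652. Zfp512 (chr5:31451482-31454805) held 853.3 ± 64.3 in stimulated against 1272 ± 125 in resting untreated KO cells, and 828.2 ± 47.3 against 1330 ± 59.2 in WT cells. Zfp825 (chr13:74493519-74494767) fell to 512 to 559 in stimulated KO libraries, against 825 to 926 at rest, and to 506 to 651 in stimulated WT libraries, against 783 to 844 at rest. Groups did not overlap at any of these 3 peaks, which was again a condition for naming them.

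Further falls included peaks at low counts. Zfp663, one of the lowest members, held 57.4, 63.2, 55.6 and 56.0 in stimulated untreated KO and 119, 113 and 122 in resting untreated KO libraries, a log2 change of -1.02 ± 0.21 (adjusted p = 0.000123 by limma). Its peak holds no listed start of Zfp663 but holds the start of another gene, Gm29831. Zfp612 was called at -0.79 in KO cells (36.1 ± 7.7 stimulated against 64.6 ± 22.9 resting), but without resting untreated KO replicate 2, which held 90.6, its change was -0.52 with an adjusted p of 0.128. Zfp781 and Zfp607b fell by 0.59 and 0.57 in KO cells. In WT cells Zfp335, Zfp362, Zfp287 and Zfp870 fell by 0.64, 0.56, 0.47 and 0.45. These falls were not all confined to 1 genotype. Zfp607b held 857 to 995 in stimulated and 1176 to 1303 in resting untreated WT libraries. In untreated KO libraries Zfp287 held 309 to 368 stimulated and 402 to 452 resting, and Zfp870 held 502 to 579 and 628 to 817. Zfp781 in WT and Zfp362 in KO cells had overlapping groups.

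The genotypes did not differ detectably in this response. Of the members called, 75 were called in both, all in the same direction, which is 64.1% of the 117 in KO and 74.3% of the 101 in WT; 42 were called in KO but not WT, 26 in WT but not KO and 173 in neither. The matching shares over all peaks were not computed. Across the 316 peaks the log2 changes in KO and WT, which share no library, had r = 0.869, a description over peaks that are not independent. By the interaction of genotype and stimulation, coded KO minus WT, limma called 0 members (0.00779% of all peaks), with 9 at an unadjusted p under 0.05, and edgeR and DESeq2 on the recovered reads called 0 as well. Between resting untreated KO and resting untreated WT cells limma called 0 members (1.73% of all peaks, 0.989% of the other promoters), with 24 at an unadjusted p under 0.05; edgeR called 0 and DESeq2 1. The smallest adjusted p there was 0.0679, at Zfp663.

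**Figure D2:**
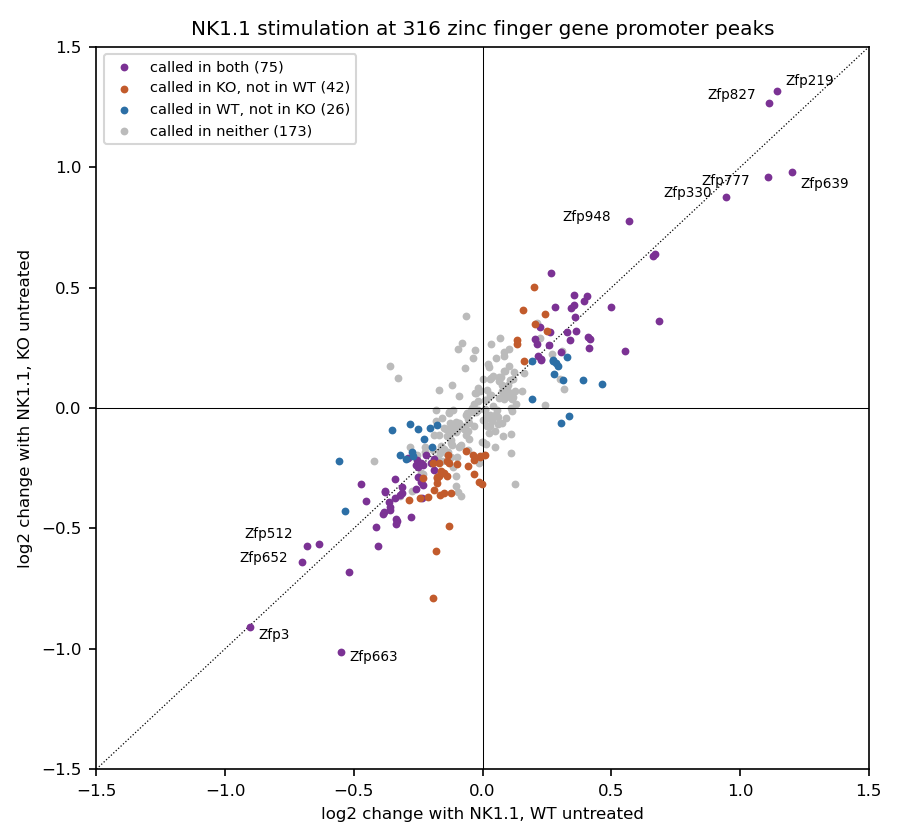
Log2 change with stimulation of the 316 member peaks, in untreated WT cells on the horizontal axis and in untreated KO cells on the vertical axis, coloured by the genotype in which limma called them. The 75 peaks called in both lie at the lower left and upper right, and a few peaks such as Zfp827 and Zfp219 stand far from the rest.

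Some of the changed peaks lay next to, and not over, the start of the named gene. A start of the named gene lay inside 254 of the peaks, outside 15, and for 47 no start was in the promoter table. Stimulation called 95 of the 254 (37.4%) in KO and 82 (32.3%) in WT cells, near the shares of all members, and 8 of the 15 (53.3%) in KO and 9 (60%) in WT cells, near the 54.5% and 56.3% of all peaks. Clustered and dispersed members were called as follows: 64 of 186 and 53 of 130 in KO cells, 54 of 186 (29%) and 47 of 130 (36.2%) in WT cells. No test of the difference between these classes was made.

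Genes with a pair of promoter peaks show this directly, since both peaks come from the same libraries. Zfp639 has a peak over its start (chr3:32509844-32511675) and another that ends 1212 bp from the start (chr3:32508650-32509380). The peak off the start held 241, 231, 226 and 229 in stimulated untreated KO and 124, 114 and 113 in resting untreated KO libraries, and 270, 252, 282 and 331 in stimulated untreated WT and 113, 108, 121 and 150 in resting untreated WT libraries. It rose by 0.98 ± 0.12 in KO and 1.20 ± 0.11 in WT cells (adjusted p = 4.83e-09 and 4.63e-12 by limma). The peak over the start, at 1121 ± 47.9 in stimulated and 1267 ± 246 in resting untreated KO cells and 1248 ± 93.6 and 1395 ± 57.7 in WT cells, was not called, with log2 changes of -0.16 in both. Zfp219, a cofactor of Sox9 in mouse cartilage, followed the same pattern: its peak 1946 bp from the nearest start held 503 to 631 in stimulated and 192 to 267 in resting untreated KO libraries, a log2 change of 1.32, while the peak over the starts (chr14:52019244-52020746) changed by 0.07 in KO and 0.13 in WT cells and was not called. Whether a peak off the start belongs to the gene it is named for was not tested.

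Zfp3 moved in both directions at once. Its peak 1289 bp from the start (chr11:70762055-70763158) fell to 193, 138, 138 and 119 in stimulated untreated KO libraries, against 314, 260 and 248 at rest, a log2 change of -0.91 in KO and of -0.90 in WT cells. The peak over its start (chr11:70763428-70764939) rose by 0.34 ± 0.09 in KO cells and by 0.22 ± 0.08 in WT cells (adjusted p = 0.00206 and 0.0238 by limma). The WT call there was lost without stimulated untreated WT replicate 1 (0.18, adjusted p = 0.1) or resting untreated WT replicate 2 (0.18, 0.0949) or 4 (0.20, 0.0649). Zfp335, which mouse T cells need in order to mature, fell by 0.57 in KO and 0.64 in WT cells at a peak 1535 bp from its start, with the start peak not called. Zfp677 differed, since its start peak fell by 0.49 in KO cells and the peak 1565 bp away was not called. At Zfp777 it was the peak over the start that rose, while the peak 579 bp away (109 ± 10.9 in stimulated and 106.8 ± 7.2 in resting untreated WT cells) was not called. Zfp638 fell by 0.35 in KO and 0.38 in WT cells at a peak 45762 bp from its listed start and was not called at the start.

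**Figure D3:**
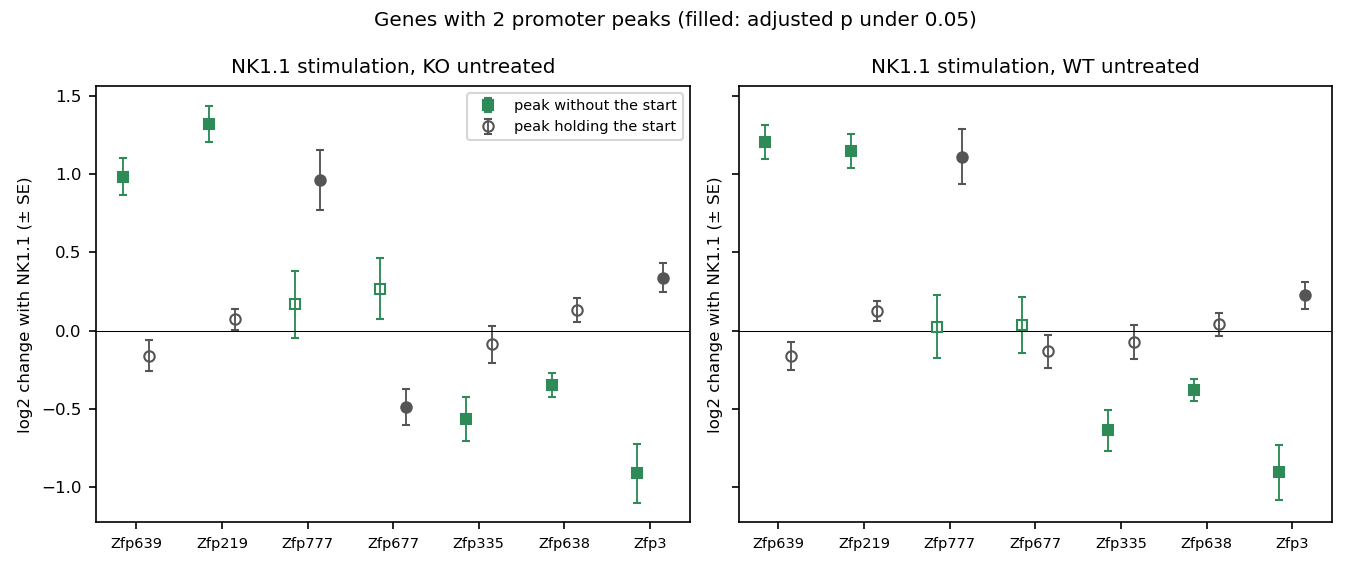
Log2 change with stimulation, in untreated KO cells (left) and untreated WT cells (right), at both promoter peaks of 7 genes; squares are the peak without the start, circles the peak that holds it, bars are ± SE and filled symbols were called by limma. At Zfp639, Zfp219 and Zfp335 the square is far from the circle, which lies near 0, and at Zfp3 they lie on opposite sides of 0.

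PGE2 lowered more of these promoters than it raised in stimulated WT cells, and its largest effects were on the peaks that stimulation moved. In stimulated WT cells with PGE2 against stimulated untreated WT cells, 15 members rose and 46 fell, 19.3% of members, against 40.5% of all peaks and 27.2% of the other promoters. Rises made up 4.75% of members, 20.2% of all peaks and 7.16% of the other promoters, and falls 14.6%, 20.4% and 20.1%. Libraries did not overlap at 48 of the 61. The largest falls were at Zfp639, Zfp827, Zfp777, Zfp330 and Zfp62. With the values centred on the other promoters, 32 rose and 28 fell, so the excess of falls is relative to the authors' size factors. Changes of less than 0.5 (log2) made up 97.5% of members and 90.7% of the other promoters.

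Zfp827 held 1146, 1082, 1081 and 1077 in stimulated WT libraries with PGE2 and 2033, 2032, 2082 and 2072 in those without, a log2 change of -0.91 ± 0.09 (adjusted p = 1.48e-10 by limma). Those levels with PGE2 lay just above the 841 to 1025 of resting untreated WT libraries. The Zfp639 peak off the start held 143, 154, 130 and 152 with PGE2 and 270, 252, 282 and 331 without, a change of -0.96 ± 0.11 (adjusted p = 4.44e-09), and overlapped the 108 to 150 of resting untreated WT libraries. Zfp330 held 554 to 613 with PGE2 and 874 to 993 without, and Zfp62 held 1074 to 1220 with PGE2 and 1665 to 1855 without. Zfp219, at 307.2 ± 30.0 with PGE2 and 436.1 ± 58.0 without (n = 4 each), fell by 0.50 and stayed above the 183 to 205 of resting untreated WT libraries. Zfp777 and Zfp266 fell by 0.72 and 0.46, and the Zfp677 peak off the start by 0.51, though that last call was lost without PGE2-treated replicate 3 (-0.47, adjusted p = 0.0539), PGE2-treated replicate 4 (-0.47, 0.0535) or untreated replicate 4 (-0.44, 0.0733), and when values were centred on the other promoters.

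Rises with PGE2 in stimulated WT cells were smaller and several fell on peaks named above for their fall with stimulation. Zfp870 held 751, 843, 820 and 747 with PGE2 and 553, 646, 564 and 604 without, a log2 change of 0.42 ± 0.10 (adjusted p = 0.000568 by limma). Zfp652 held 711 to 765 with PGE2 and 541 to 619 without, a change of 0.34 ± 0.09. Zfp825 and Zfp607b rose by 0.27 each, Zfp949 by 0.34, Zfp839 by 0.33 and Zfp955b by 0.28. The Zfp335 peak off the start rose by 0.36 (adjusted p = 0.0252), but without PGE2-treated replicate 4 or untreated replicate 4 the change was 0.26 or 0.24, with adjusted p of 0.128 or 0.159. The PGE2 comparison shares its untreated stimulated libraries with the WT stimulation comparison, so the opposite signs of the 2 are partly built in. Stimulation in KO cells shares no library with it: 40 members were called in both of those, 65.6% of the 61 and 34.2% of the 117, and in all 40 the signs were opposite. The matching shares over all peaks were not computed here either.

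In KO cells PGE2 changed no member past the threshold. Between stimulated KO cells with and without PGE2, limma called 0 members (0.0026% of all peaks, 0% of the other promoters), with 9 at an unadjusted p under 0.05, and edgeR and DESeq2 called 0. Between resting KO cells with and without PGE2 it also called 0 members (0% of all peaks), with 7 at an unadjusted p under 0.05 and 0 by edgeR and DESeq2. Zfp827 held 1939, 1719, 1737 and 1662 in stimulated KO libraries with PGE2 and 2382, 2309, 1864 and 1916 in those without, a log2 change of -0.26 ± 0.09 with the smallest p of any member (adjusted p = 0.999 by limma). Zfp639 held 218, 228, 238 and 234 with PGE2 and 241, 231, 226 and 229 without, a change of -0.02 ± 0.11, and Zfp777 changed by -0.35 ± 0.18. An adjusted p above the threshold does not show that these values were equal.

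**Figure D4:**
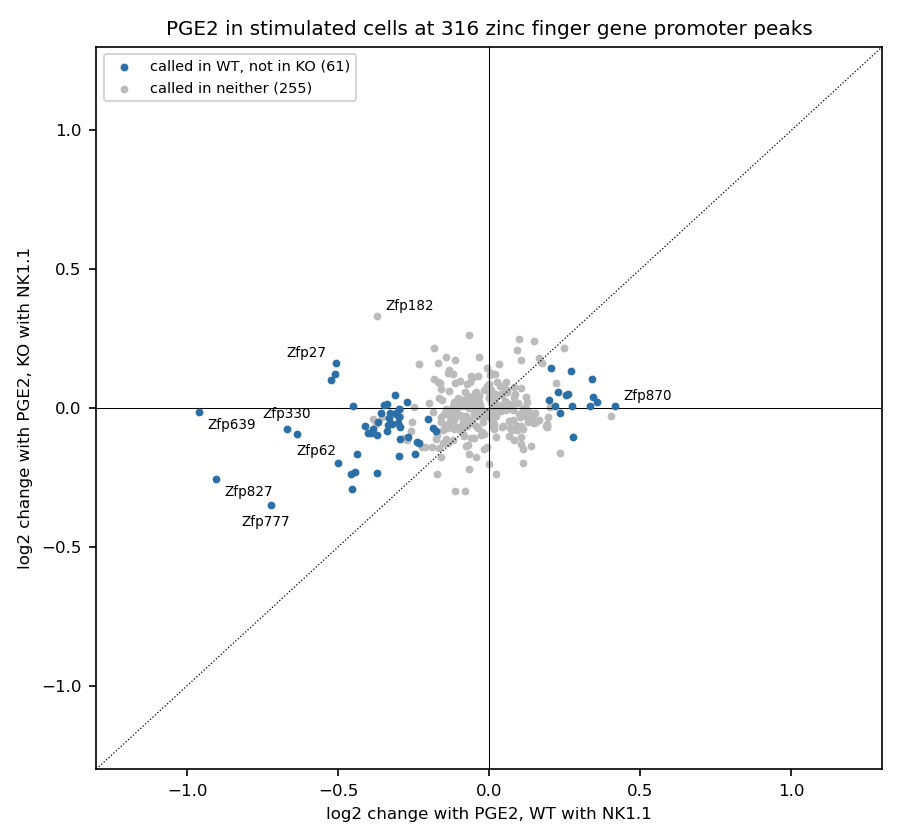
Log2 change with PGE2 of the 316 member peaks, in stimulated WT cells on the horizontal axis and in stimulated KO cells on the vertical axis. The 61 peaks called in WT spread along the horizontal axis while their KO changes run from -0.35 at Zfp777 to 0.16 at Zfp27; the 255 others were called in neither.

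The difference between genotypes was tested itself at each peak. By the interaction of genotype and PGE2 in stimulated cells, coded KO minus WT, limma called 14 members, 12 with a positive and 2 with a negative difference (4.43% of members; of all peaks 20%, 9.8% positive and 10.2% negative; of the other promoters 10.4%, 7.63% and 2.8%). Zfp639 differed most, by 0.94 ± 0.15 (adjusted p = 2.07e-05), and among the others Zfp27 differed by 0.67 ± 0.16 (0.00254), Zfp827 by 0.65 ± 0.12 (0.00019), Zfp330 by 0.59 and Zfp62 by 0.54. Zfp182, on the X chromosome, also had a difference of 0.70 (0.0261) although neither genotype's own change was called, and Zfp870 and Zfp955b had differences of -0.41 and -0.38. The Zfp182 call was lost without stimulated KO with PGE2 replicate 3, stimulated untreated KO replicate 1, stimulated WT with PGE2 replicate 1 or stimulated untreated WT replicate 1 or 3, with adjusted p of 0.0512 to 0.0698. The Zfp870 call was lost without stimulated KO with PGE2 replicate 1 or 3, stimulated untreated KO replicate 1, stimulated WT with PGE2 replicate 2 or 3 or stimulated untreated WT replicate 1 or 3, with adjusted p of 0.0515 to 0.0609. Zfp219 and Zfp777 did not pass this test, at 0.30 (adjusted p = 0.172) and 0.37 (0.327).

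Stimulated KO cells with PGE2 were also set against stimulated WT cells with PGE2, a difference in level that includes any genotype difference present without PGE2. There 27 members were higher and 39 lower in KO, 20.9% of members, against 40.2% of all peaks (20.5% higher, 19.7% lower) and 28.8% of the other promoters (15.6% higher, 13.1% lower), with no overlap at 45 of the 66. Without stimulated KO with PGE2 replicate 3 the count was 42, and without stimulated WT with PGE2 replicate 4 it was 43. Zfp827 held 1764 ± 121 in KO and 1097 ± 33.2 in WT cells, Zfp639 229.5 ± 8.8 and 145 ± 10.8, and Zfp219 489.2 ± 41.2 and 307.2 ± 30.0 (SD, n = 4 each), with log2 differences of 0.68, 0.66 and 0.67. Without PGE2, stimulated libraries at Zfp219 already lay higher in KO, at 503 to 631 against 350 to 470 in WT. At Zfp639 they lay lower in KO, at 226 to 241 against 252 to 331, and at Zfp827 they overlapped. The Zfp677 peak off the start was 0.86 higher in KO and its start peak 0.40 lower. That start peak was also lower in KO without PGE2, at 252 to 365 against 386 to 401 in stimulated WT libraries. Zfp870 held 514 to 623 in KO and 747 to 843 in WT libraries, 0.51 lower in KO on the log2 scale, and Zfp949 was 0.48 lower. This comparison shares its WT libraries with the PGE2 comparison in WT cells.

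With PGE2 present, stimulation changed few of these promoters in WT cells and many in KO cells. In KO cells with PGE2, stimulated against resting, 39 members rose and 71 fell (34.8% of members, 54.8% of all peaks, 42.5% of the other promoters; no overlap at 73 of 110), with Zfp639 and Zfp827 each up by 0.92, Zfp219 by 0.88 and Zfp330 by 0.85, and Zfp652 and Zfp512 each down by 0.58. In WT cells with PGE2, 6 rose and 12 fell (5.7% of members, 16.5% of all peaks, 8.98% of the other promoters; no overlap at 15 of 18). Of all peaks 12.7% rose and 3.8% fell in that comparison, and of the other promoters 4.04% and 4.94%; for KO cells these were 27.7% and 27.1% of all peaks and 17% and 25.5% of the other promoters. Zfp330 rose by 0.31 and Zfp64 by 0.37 there, and Zfp467 fell by 0.49, to 283.4 ± 28.1 in stimulated against 400.4 ± 58.7 in resting WT cells with PGE2 (n = 4 and 3). Without resting WT with PGE2 replicate 3 the WT count was 6 and without stimulated WT with PGE2 replicate 1 it was 11. Without the first of these Zfp64 changed by 0.34 (adjusted p = 0.0589), without resting replicate 4 by 0.30 (0.0938), and without that resting replicate 4 Zfp330 changed by 0.26 (0.0669).

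Whether PGE2 acted differently in stimulated than in resting WT cells was tested by an interaction, coded as the effect with stimulation minus the effect at rest, which called 22 members, 9 positive and 13 negative (6.96% of members; of all peaks 25.3%, 10.6% positive and 14.7% negative; of the other promoters 13.6%, 4.36% and 9.2%). The interaction shares its libraries with the WT stimulation and PGE2 comparisons, so its signs follow partly from theirs. The 13 negative ones include Zfp639 at -1.19 ± 0.16 (adjusted p = 8.09e-07), Zfp219 at -0.95, Zfp827 at -0.88 and Zfp330 at -0.64. The positive ones included Zfp955b at 0.47, Zfp870 at 0.44, Zfp287 at 0.39 and Zfp512 at 0.38. The Zfp870 difference was 0.31 with an adjusted p of 0.121 without resting WT with PGE2 replicate 3, and the count of members was then 14. Scaled by total reads in peaks or centred on the other promoters, 58.6% of the called members were positive, against 40.9% here.

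At rest PGE2 changed 9 members in WT cells, 2 up and 7 down (2.85% of members, 14.9% of all peaks, 4.74% of the other promoters), with no overlap at 6. Rises were 0.633% of members, 10.9% of all peaks and 2.24% of the other promoters, and falls 2.22%, 4.03% and 2.5%. Zfp219 off its start held 250, 264 and 290 in resting WT libraries with PGE2 and 183, 199, 194 and 205 in resting untreated WT libraries, a rise of 0.45 ± 0.12 (adjusted p = 0.00499 by limma); the same peak fell with PGE2 in stimulated WT cells. Zfp3 fell over its start, to 514, 480 and 535 with PGE2 against 765, 634, 720 and 663 without, by 0.45 ± 0.09 (adjusted p = 0.000463). It also fell there with PGE2 in stimulated WT cells, by 0.38 ± 0.08. The largest called change was at the Zfp677 peak off the start, at 63.7, 59.4 and 43.4 with PGE2 and 102, 91.4, 91.3 and 62.1 without, groups that overlap, with a log2 change of -0.63 ± 0.19 (adjusted p = 0.0206). It was lost without resting WT with PGE2 replicate 4 (-0.47, 0.171) or untreated replicate 1 (-0.54, 0.0804), 2 (-0.60, 0.0539) or 3 (-0.60, 0.0516). Zfp169 rose by 0.31, and Zfp512, Zfp398 and Zfp946 fell by 0.26, 0.25 and 0.32, but each of these 4 calls was lost without resting untreated WT replicate 2 (adjusted p = 0.0513, 0.0797, 0.0793 and 0.0805). The Zfp169 call was also lost without resting WT with PGE2 replicate 2 (0.0537), the Zfp512 call without untreated replicate 1 (0.0652) or 4 (0.0504) or PGE2-treated replicate 4 (0.178), the Zfp398 call without untreated replicate 1 (0.123) or any PGE2-treated replicate (0.0596 to 0.117), and the Zfp946 call without untreated replicate 1 (0.127) or 4 (0.0786) or PGE2-treated replicate 3 (0.16) or 4 (0.142). The Zfp512 and Zfp946 calls also ended when values were centred on the other promoters. The count itself was 3 without resting untreated WT replicate 2, and 5 without resting untreated WT replicate 1 or resting WT with PGE2 replicate 3 or 4.

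Members with a role known in mice or people were looked at from a list. Of 27 such genes listed, 23 have a member, with 24 peaks. Stimulation called 5 of the 24 in KO cells (3 up, 2 down) and 7 in WT cells (4 up, 3 down), where 41.2% and 41.5% of the other promoters and 54.5% and 56.3% of all peaks were called. PGE2 called 7 in stimulated WT cells (1 up, 6 down), against 27.2% of the other promoters and 40.5% of all peaks, and 0 in resting WT cells, against 4.74% and 14.9%. Zfp106, an RNA-binding protein that motor neurons need, held 288.9 ± 24.7 in stimulated and 216.1 ± 8.1 in resting untreated KO cells, 295.1 ± 26.8 and 232 ± 15.1 in WT cells, and 215.6 ± 19.4 in stimulated WT cells with PGE2. Its log2 changes with stimulation were 0.41 in KO and 0.34 in WT cells, and PGE2 changed it by -0.45 in stimulated WT cells (adjusted p = 0.00022 by limma). Zfp384 rose with stimulation by 0.28 in WT cells and fell with PGE2 by 0.39, and Zfp296, a factor of pluripotent cells, fell with PGE2 by 0.37.

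Several other called changes in these genes did not withstand leaving out 1 library, and for most of them more than 1 library had this effect. Zfp687 fell with stimulation by 0.23 in KO and 0.20 in WT cells, which was lost in KO without stimulated untreated replicate 3 (adjusted p = 0.051) or resting untreated replicate 2 (0.0591) and in WT without stimulated untreated replicate 3 (0.055). Zfp131, which rose by 0.28 in KO and 0.20 in WT cells, lost its KO call without resting untreated replicate 4 (0.0907) and its WT call without any library but stimulated replicate 2 and resting replicate 1. Zfp281, a factor of embryonic stem cells, rose by 0.22 in KO and 0.21 in WT cells, a call kept in KO only without stimulated replicate 1 and in WT only without stimulated replicate 2 or resting replicate 1 or 2. Zfp207, whose product binds spindle microtubules, fell by 0.20 in WT cells, lost without stimulated replicate 1 (0.0575) or 4 (0.137) or resting replicate 1 (0.112) or 2 (0.0596). PGE2 in stimulated WT cells lowered Zfp131 by 0.24, Zfp318, which B cells need to make IgD, by 0.30, and Zfp57, which keeps imprints, by 0.52. These 3 calls were lost when values were centred on the other promoters and without untreated replicate 4 (adjusted p = 0.068, 0.0918 and 0.0696), and also without untreated replicate 1 (0.0562) or PGE2-treated replicate 1 (0.0532) or 4 (0.0552) for Zfp131, untreated replicate 3 (0.159) or PGE2-treated replicate 1 (0.195) or 2 (0.0795) for Zfp318, and untreated replicate 3 (0.11) for Zfp57. No call in these 4 comparisons was made at Zfp143, a factor of many promoters that held 2317 ± 279 in stimulated and 2380 ± 125 in resting untreated KO cells, nor at Zfp91, a ubiquitin ligase of NF-kB signalling, Zfp809, which silences murine leukaemia provirus, Zfp622, Zfp703, Zfp263 or Zfp410, the activator of the Chd4 gene. Zfp683, the Hobit gene of tissue-resident lymphocytes, Zfp148, Zfp423 and Zfp42 are on the same list but have no member peak and were not analysed here.

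The promoters of genes whose products work with KRAB zinc finger proteins gave 30 peaks of 28 of the 31 genes listed. Stimulation called 10 of the 30 (33.3%) in KO cells (4 up, 6 down) and 12 (40%) in WT cells (6 up, 6 down), against 41.2% and 41.5% of the other promoters and 54.5% and 56.3% of all peaks. PGE2 called 11 (36.7%) in stimulated WT cells (2 up, 9 down) and 1 (3.33%) in resting WT cells, against 27.2% and 4.74% of the other promoters and 40.5% and 14.9% of all peaks. Chd4, the NuRD remodeller, held 1113 ± 77.2 in stimulated and 800 ± 28.7 in resting untreated KO cells and 1157 ± 44.5 and 822.2 ± 10.8 in WT cells, and held 846.9 ± 89.8 in stimulated WT cells with PGE2. Dnmt3a, a DNA methyltransferase, rose with stimulation by 0.51 in KO and 0.48 in WT cells and fell with PGE2 by 0.60. One promoter peak of Atf7ip, the partner of SETDB1, went the other way in WT cells, falling with stimulation by 0.55 and rising with PGE2 by 0.57, to 392.2 ± 22.6 against 264.2 ± 29.7, while its other, higher peak was not called (changes of 0.09 and -0.12). Other falls with stimulation included Tasor, by 0.38 in KO and 0.24 in WT cells, and a Dnmt1 peak, by 0.24 and 0.27. Chd3 was the promoter called with PGE2 in resting WT cells, where it fell by 0.46. Trim28 itself fell by 0.26 with stimulation in KO cells, and Setdb1 was not called (275.8 ± 26.1 in stimulated and 282 ± 21.6 in resting untreated KO cells).

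Peaks away from the promoters were also named for these genes. Of 242 intron, exon and intergenic peaks named for 110 of the member genes, stimulation called 138 (57%) in KO and 140 (57.9%) in WT cells, PGE2 called 104 (62 up, 42 down) in stimulated WT cells and 36 in resting WT cells, and PGE2 called 0 in stimulated KO cells. With stimulation these shares are near those of all peaks and below the 60.6% in KO and 63.2% in WT cells of all intron, exon and intergenic peaks, and with PGE2 they are 43% and 14.9% in WT cells, against 46.7% and 19.5%. Zfp827 has 7 such peaks, all in introns, of which 6 rose with stimulation in both genotypes and 5 fell with PGE2 in stimulated WT cells. The remaining 1, chr8:79173082-79174082, was called up by 0.52 in KO cells, but not without stimulated untreated KO replicate 1 (adjusted p = 0.148) or 2 (0.127) or resting untreated KO replicate 4 (0.304), nor by edgeR or DESeq2. The strongest, chr8:79155129-79155994, held 256.1 ± 28.9 in stimulated and 17.5 ± 5.3 in resting untreated KO cells, and 238.5 ± 20.8 and 12.6 ± 7.2 in WT cells, log2 changes of 3.84 and 4.28. PGE2 lowered it to 91.95 ± 5.2 in stimulated WT cells. Of the 7 peaks, 1 was called higher with PGE2 in stimulated WT cells, a call lost in 5 of 8 omissions of 1 library. In resting WT cells 2 were called higher with PGE2 and 0 lower. At Zfp512 the other peaks split: chr5:31441256-31441930 rose by 3.08 in KO and 2.91 in WT cells with stimulation, and chr5:31407565-31409342 fell by 1.28 and 1.51. An intron peak of Zfp652 (chr11:95777267-95778358) fell by 0.43 in KO and 0.51 in WT cells and rose by 1.00 with PGE2 in stimulated WT cells. An intergenic peak named for Zfp169 held 227.2 ± 14.1 in stimulated WT cells with PGE2 and 35.9 ± 11.9 in those without, a rise of 2.70; it was picked after its values were seen.

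Zfp637 stood apart for a split among KO libraries that crosses the conditions, and its neighbourhood was looked at after its values were seen. Its promoter (chr6:117840645-117841982) held 167 to 189 in the 4 KO libraries numbered 3 and 168 to 207 in the 4 numbered 4, against 324 to 417 in the 15 WT libraries, while KO libraries numbered 1 and 2 held 349 to 438 and 331 to 403. An intergenic peak named for Zfp239 (chr6:117878983-117880415) split alike, at 730 to 833 and 684 to 891 in KO libraries numbered 3 and 4, 1459 to 1774 and 1565 to 1841 in those numbered 1 and 2, and 1483 to 1759 in WT libraries. Another intergenic peak named for Zfp239 (chr6:117874516-117875345) split too, at 154 to 304 and 191 to 300 in KO libraries numbered 3 and 4. There KO libraries numbered 1 and 2 held 376 to 675 and 391 to 636, and WT libraries 337 to 625. The 2 low sets did not overlap the others in any condition at any of these peaks. Zfp637 was called lower in stimulated KO than stimulated WT cells with PGE2, at 254.4 ± 98.9 against 373.4 ± 22.7 and -0.64 ± 0.25 (adjusted p = 0.039 by limma), and without KO replicate 3 or 4 of that group the difference was -0.47 in each case, with adjusted p of 0.164 and 0.168. The call was also lost without any 1 of the 4 WT libraries (adjusted p of 0.054 to 0.0778), and by edgeR (0.0513) and DESeq2 (0.131). The Zfp239 promoter peak did not split as cleanly. It held 31.2 to 43.2 and 24.7 to 57.3 in KO libraries numbered 3 and 4, and 38.6 to 64.8 and 55.9 to 80.8 in those numbered 1 and 2. Depth differed too: KO libraries numbered 1 and 2 held 8444350 to 13740826 reads in peaks, and those numbered 3 and 4 held 14611688 to 20153816. What sets these KO libraries apart was not tested.

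**Figure D5:**
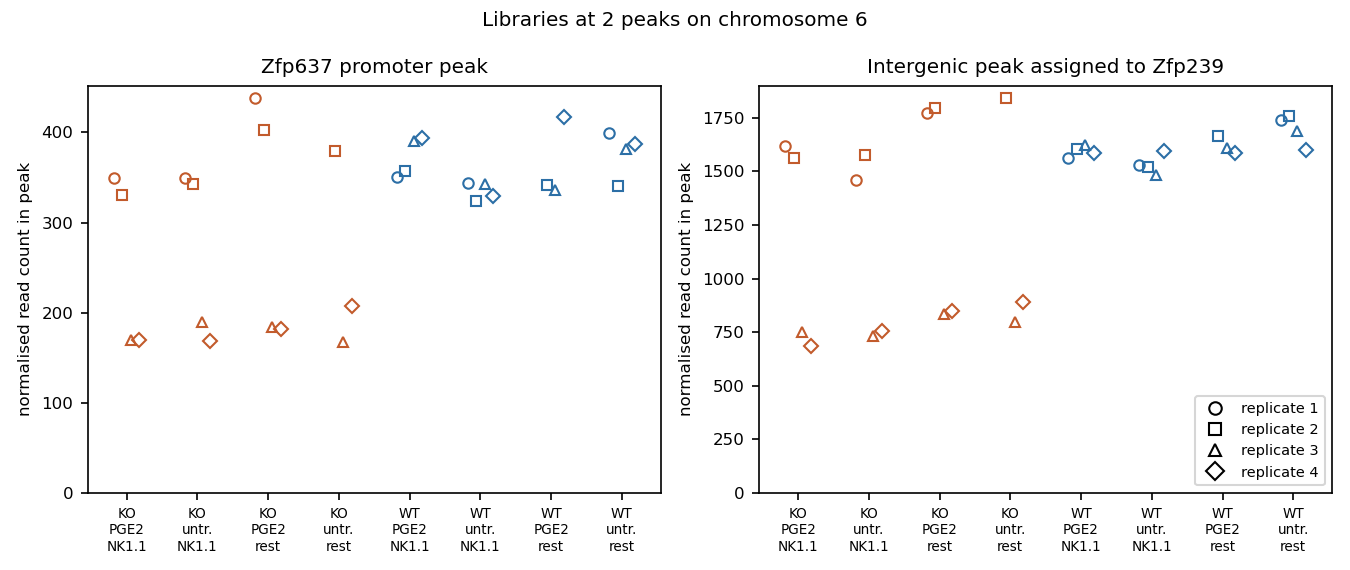
Normalised read counts of the Zfp637 promoter peak and of the intergenic peak named for Zfp239 in every library, by group, with the marker shape giving the replicate number. KO libraries numbered 3 and 4 lie low in all 4 KO groups at both peaks, while those numbered 1 and 2 lie among the WT libraries.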

How the data were processed

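ATAC-seq had been run on 30 libraries in 8 groups. Per the submitters' processing notes, Trimmomatic 0.39, Bowtie2 2.4.1, MACS2 2.2.7.1, DESeq2 and the mm10 build were used; how duplicates and the transposase offset were handled is not stated in any source used. The authors deposited 1 table of 38526 peaks with normalised read counts (signal), made by dividing reads by size factors, so values are relative to the peaks as a whole. Dividing each column by the largest step found to make its values whole, taken as 1 read, gave whole reads for all values (tolerance 0.05 reads), with 8444350 to 20153816 reads per library.

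The main test was limma 3.58.1 in R 4.3.3 with trend and empirical Bayes moderation on log2(value + 1), 1 mean per group over all 30 libraries, on the 38525 peaks with a mean of at least 10, two-sided, with Benjamini-Hochberg adjustment over all tested peaks and a call at an adjusted p under 0.05; log2 changes understate those of low peaks. The test was tried on simulated data first. Alternatives were edgeR 4.0.16 and DESeq2 1.42.0 on the recovered reads, other scalings, pseudocount 10, other filters, a replicate block, only the groups compared, and each library left out. The replicate numbers paired the libraries (every pair's deviations correlated above 0.1) for PGE2 in stimulated WT, stimulated KO and resting KO cells and for stimulation in KO cells with PGE2, and the block changed no count there by over 1.5 times.

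Members and lists were chosen with earlier results of these data known. Genes were named by rule: per direction, up to 8 called members (4 in secondary comparisons) with the largest change, a mean of 50 or more in whichever group was higher and libraries that did not overlap, with the role and cofactor lists and both peaks of genes with 2. Subgroups by KRAB domain or number of fingers were not run, and no genome sequence was used beyond the RefSeq promoter windows. Python 3.11.15 and pandas 2.3.3 were used for tables and figures.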

Additional observations from a re-analysis of the deposited data

Results flagged for a closer look

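Of 103 combinations of a named member and a group of 4 libraries, 10 had a library far from the other 3, by Dixon's critical value for 4 samples; chance gives about 1 in 20. In stimulated untreated WT cells, replicate 2 was at 350 at the Zfp219 peak off the start (others 455 to 470), at 511 at Zfp266 (435 to 443) and at 123 at Zfp777 (204 to 213), replicate 1 was at 235 at the Zfp3 peak off the start (172 to 181), and replicate 4 was at 131 at the Zfp335 peak off the start (178 to 186) and at 229 at Zfp949 (262 to 265). In stimulated WT cells with PGE2, replicate 1 was at 1146 at Zfp827 (1077 to 1082) and replicate 2 at 1197 at Zfp607b (1089 to 1102). In stimulated KO cells with PGE2, replicate 1 was at 923 at Zfp330 (830 to 843), and in resting KO cells with PGE2, replicate 2 was at 1188 at Zfp512 (1322 to 1327).

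The effect of PGE2 differed between stimulated and resting WT cells, by limma's interaction term (effect when stimulated minus effect at rest), at Zfp955b by 0.47 ± 0.12 (SE, adjusted p = 0.00238), Zfp870 by 0.44 ± 0.14 (0.0189), Zfp287 by 0.39 ± 0.12 (0.0185), Zfp512 by 0.38 ± 0.11 (0.0104), Zfp639 by -1.19 ± 0.16 (8.09e-07), Zfp219 by -0.95 ± 0.16 (2.48e-05), Zfp827 by -0.88 ± 0.13 (3.46e-06) and Zfp330 by -0.64 ± 0.11 (7.02e-05). It differed between stimulated KO and WT cells (KO minus WT) at Zfp639 by 0.94 ± 0.15 (2.07e-05), Zfp182 by 0.70 ± 0.23 (0.0261), Zfp27 by 0.67 ± 0.16 (0.00254), Zfp827 by 0.65 ± 0.12 (0.00019), Zfp870 by -0.41 ± 0.14 (0.0277) and Zfp955b by -0.38 ± 0.11 (0.0117). What lies behind these differences was not tested.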

How the results depend on the processing

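No named value reversed under any alternative. Of 207 named calls, 154 were kept in every setting and every omission of 1 library, and 53 were lost in at least 1 omission; centring on the other promoters ended 14, scaling by total reads 6, fitting only the groups compared 6, quantile normalisation 4, edgeR 4, DESeq2 2, the replicate block 2, TMM 1 and pseudocount 10 1, while no filter ended 0. The count of members called for PGE2 in resting WT cells, 9, was 5 when centred and 14 with the replicate block, and 3 to 10 without 1 library (5 without resting WT with PGE2 replicate 3 or 4 or untreated replicate 1). The count for stimulation in WT cells with PGE2 was 6 to 16 without 1 library (11 and 6 for the libraries named above), that for resting untreated KO against WT cells, 0, was 1 by quantile normalisation and by DESeq2 and 0 to 1 without 1 library, that for stimulated KO against WT cells with PGE2 was 42 to 72, and the interaction counts were 14 to 21 for PGE2 and stimulation and 10 to 20 for genotype and PGE2. Also without 1 library, counts for stimulation stayed within 88 to 110 in KO and 81 to 99 in WT cells, for stimulation in KO cells with PGE2 within 92 to 110, for PGE2 in stimulated WT cells within 46 to 61, and for PGE2 in KO cells and the interaction of genotype and stimulation at 0. Other scalings moved the share of called members that were higher: to 40% from 22.2% for PGE2 in resting WT cells when centred, to 46.7% (TMM), 44.4% (total reads) and 57.9% (centred) from 33.3% for stimulation in WT cells with PGE2, and to 61.5% (centred) and 75% (total reads) from 85.7% for the genotype interaction. Deviations of same-numbered libraries correlated from -0.021 to 0.526 over all 99 pairs (median 0.065, 39 over 0.1, 67 best with their own number), and the replicate block changed no other count by over 1.5 times. The causes were not tested. The SE of the KO stimulation change was 0.26 at Zfp612, which averaged 36.1 and 64.6 counts in the groups compared, against a median of 0.099 over the members; the part of depth in this was not tested.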
